A study of Mus musculus with 27 samples.

Results

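Donor monocytes recovered from surgically manipulated small intestine were compared with donor monocytes recovered from non-manipulated small intestine, both at day 2 after transfer. The samples were taken by their title and day label, and they were 9 of the 27 samples of the series, 4 manipulated and 5 non-manipulated mice. All 57 genes of the nCounter panel that had values were tested. Both arms received bone marrow CD11b+Ly6C+ monocytes of C57BL/6 WT donors, and the recipients of both arms were C57BL/6 CCR2-/- mice. In the manipulated arm the small intestine was handled surgically 1 day before the transfer, so that day 2 fell 3 days after surgery. These mice also received ketamine and xylazine, an abdominal incision and Novalgin in their drinking water. Non-manipulated recipients had no operation at all, so the inflammation, the anaesthesia, the incision and the analgesic cannot be told apart in this comparison. From each recipient 100 donor-derived cells of the CD11b+CD11c lo/int CD64+ gate were sorted, and their cDNA was pre-amplified with target-specific primers before barcode counting. Each sample was 1 mouse. The mice came from pooled experiments, and which mouse belonged to which was not given.

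Ly6C+ monocytes enter the gut wall from blood and mature there into resident macrophages, a path along which they lose Ly6C and CCR2 and gain MHC class II and the fractalkine receptor CX3CR1. In inflamed tissue the same cells release cytokines and chemokines that draw in further monocytes and neutrophils. CCR2, which the recipients lack, binds the chemokines CCL2 and CCL7 and releases monocytes from bone marrow.

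The promoters of 3 chemokine genes are shown because their test results at day 2 differed. Cxcl1 was higher in manipulated recipients and Cxcl9 lower. Cxcl10, a neighbour in function of Cxcl9, had a negative fold change that did not pass. The genes were not tested against each other. Each window is RefSeq sequence of build GRCm38.p6, written 5′ to 3′ on the strand of the gene, from 250 bases before to 50 bases after the start. Cxcl1 lies at chr5:90890995-90891294 (plus strand), Cxcl9 at chr5:92328030-92328329 (minus strand) and Cxcl10 at chr5:92348840-92349139 (minus strand). Capitals mark matches to an NF-kB-type motif (GGGNNTTNC) or to an interferon-response-type motif (GAAANNGAA), searched on both strands.
Cxcl1: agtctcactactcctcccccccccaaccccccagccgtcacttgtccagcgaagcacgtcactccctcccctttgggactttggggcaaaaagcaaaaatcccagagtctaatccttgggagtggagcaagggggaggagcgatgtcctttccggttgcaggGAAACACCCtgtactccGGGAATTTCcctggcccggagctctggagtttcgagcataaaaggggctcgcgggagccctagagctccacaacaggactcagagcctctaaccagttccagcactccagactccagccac
Cxcl9: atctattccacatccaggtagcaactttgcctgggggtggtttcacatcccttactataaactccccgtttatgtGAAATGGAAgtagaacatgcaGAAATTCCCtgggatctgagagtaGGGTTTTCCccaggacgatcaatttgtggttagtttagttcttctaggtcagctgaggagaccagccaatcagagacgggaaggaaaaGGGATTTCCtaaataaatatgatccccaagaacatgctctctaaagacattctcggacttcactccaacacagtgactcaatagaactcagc
Cxcl10: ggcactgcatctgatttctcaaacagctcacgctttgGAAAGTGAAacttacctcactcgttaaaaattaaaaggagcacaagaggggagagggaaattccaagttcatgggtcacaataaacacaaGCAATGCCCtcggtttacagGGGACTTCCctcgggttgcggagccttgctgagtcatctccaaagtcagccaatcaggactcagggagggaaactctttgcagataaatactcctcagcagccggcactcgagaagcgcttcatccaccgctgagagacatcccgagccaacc

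Cxcl1 held 2 NF-kB-type matches, 71 to 63 and 88 to 80 bases before its start, the second on the opposite strand. Cxcl9 held 3, at 42 to 34, 130 to 122 and, on the opposite strand, 154 to 146 bases before the start. Cxcl10 held 2, at 103 to 95 and, on the opposite strand, 123 to 115 bases. The interferon-response-type motif was matched at 175 to 167 bases in Cxcl9 and at 213 to 205 bases in Cxcl10, and not in Cxcl1. A STAT-type motif (TTCNNNGAA) was matched in none of the 3 windows. No match overlapped another. Among 32851 promoter windows of the same length, 15.2% held the NF-kB-type motif, 8.6% the interferon-response-type and 8.3% the STAT-type. The matches are letters in a window and were not measured as binding sites.

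Counting depth was alike in both arms. Summed over the tested genes, counts ran from 946057 to 1236938 in manipulated and from 697131 to 1234421 in non-manipulated samples (exact two-sided permutation test, p = 0.492). The geometric mean of the housekeeping genes Actb, Gapdh and Rpl19, by which every count was scaled, ran from 33295 to 36146 and from 21209 to 38865 (exact permutation p = 0.603). Background (5 negative-control probes, their mean plus 2 SD) was 34.8 to 46.4 counts in manipulated and 25.7 to 34.7 in non-manipulated lanes, and the positive controls 433 to 651 and 653 to 760. Neither control overlapped between arms (exact permutation p = 0.0159 for each, the smallest that 4 against 5 samples allow), and the part of this difference in the results was not tested. Within the housekeeping set, Rpl19 relative to Actb was higher by 1.05 log2 units in manipulated samples (exact permutation p = 0.0635), which bears on the scaling alternatives below. Genes that mark monocytes and macrophages were read in all 9 samples: Fcgr1, which encodes the gated protein CD64, at 15943 to 36175 and 16985 to 40991 scaled counts, and Spi1, the gene of the myeloid transcription factor PU.1, at 22597 to 47969 and 54399 to 62968. A scaled count is a count over the housekeeping mean of its own lane, brought to the average housekeeping level of the series. Markers of neutrophils, T cells, B cells and epithelium were not on the panel. Of the dendritic cell markers Flt3, Zbtb46 and Ccr7 only Ccr7 had values, at 1137 to 3017 in manipulated and 1093 to 17885 in non-manipulated samples. Itgax, Ccl22, Irf4 and H2-Ab1, which macrophages and dendritic cells both express, had negative fold changes, and the part of dendritic cells in them was not tested.

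At day 2, cells from manipulated recipients had more RNA of Cxcl1, Ccl2 and Ccl7, chemokines that recruit neutrophils or monocytes, and of Il1a, Il10, Chil3 and both TREM receptors. They had less of the interferon-induced chemokines Cxcl9 and Cxcl11, of Ccl22, Irf4, Itgax, Tgfb1 and Ly6c1, and of the chemokine receptors Ccr2, Cx3cr1 and Ccr9. Several of these calls were fragile. The Ccr9 difference rested on non-manipulated mouse 5, and Ly6c1 of non-manipulated mice 2 and 3 lay at the manipulated level. Chil3 was high in manipulated mice 1 and 2 alone. Of the lower genes, only Cxcl9 and Ccl22 were called by limma on the values normalized by the authors. In all, 18 of 57 genes passed at an adjusted p below 0.05 (31.6%, edgeR quasi-likelihood test, Benjamini-Hochberg adjustment over the 57 genes), 8 higher (14%) and 10 lower (17.5%), and 24 had an unadjusted p below 0.05. The median log2 fold change of all genes was -0.05. The values of both arms did not overlap for 16 genes (28.1%), 8 higher and 8 lower in manipulated recipients (14% each). Fewer cells of a kind and less RNA per cell cannot be told apart in pools of sorted cells.

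**Figure D1:**
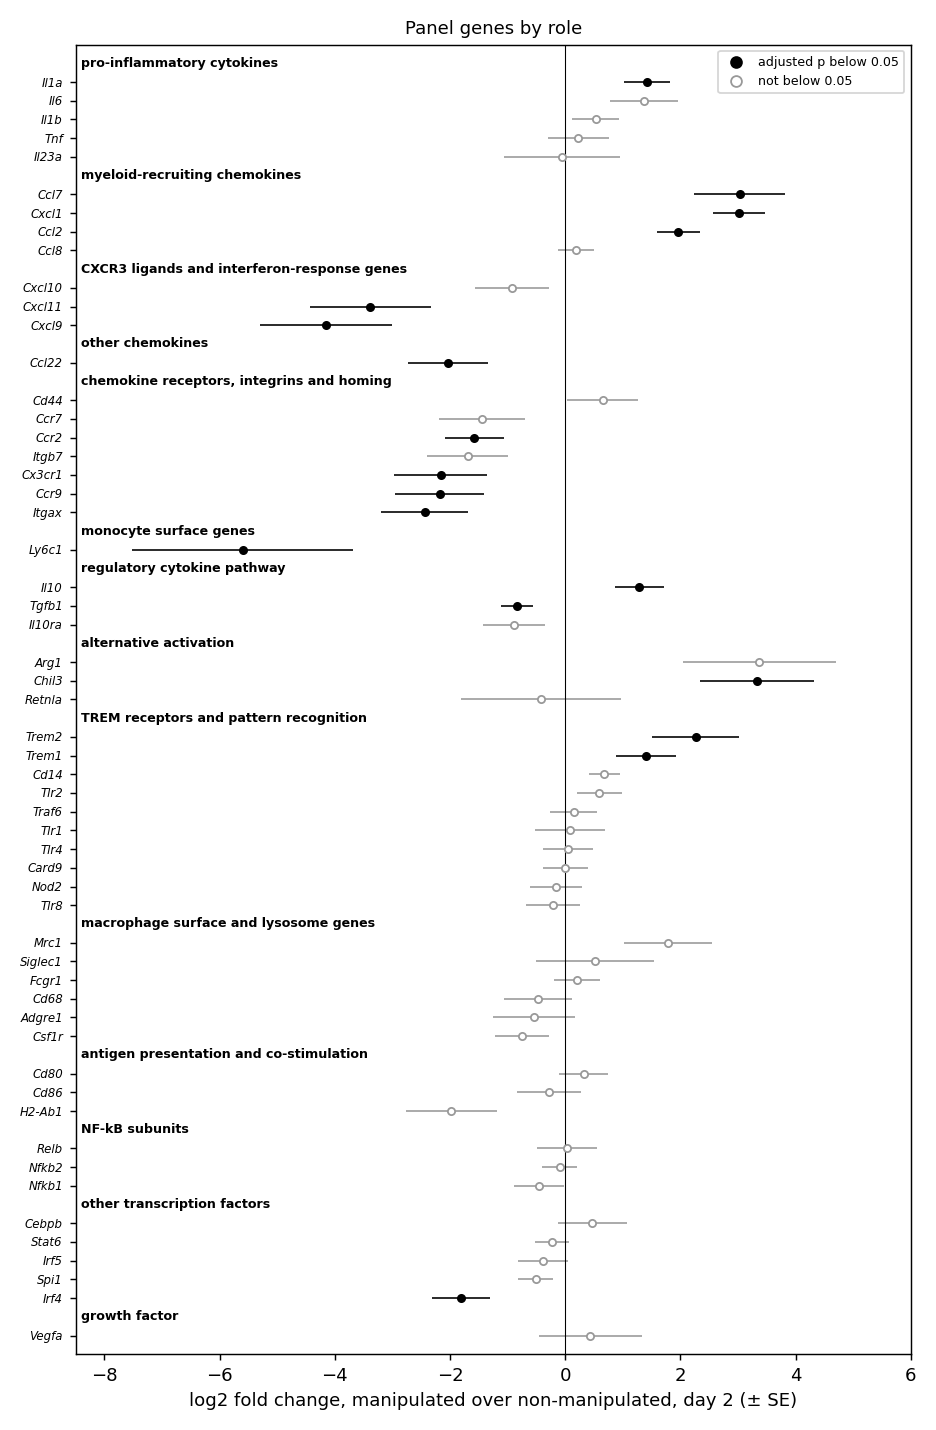
Log2 fold change of 55 of the 57 genes, manipulated over non-manipulated at day 2, with its standard error, grouped by role; filled points had an adjusted p below 0.05 by edgeR. The 3 called genes among the myeloid-recruiting chemokines stand between 1.97 and 3.03, while 4 genes of receptors, integrins and homing lie filled between -2.44 and -1.57.

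Of the 4 measured chemokines that recruit myeloid cells, 3 were higher in manipulated recipients, against 8 of all 57 genes (14%), and the median of the list was 2.49. Cxcl1, which attracts neutrophils, stood at 6429, 2218, 2358 and 2557 scaled counts in manipulated mice 1 to 4, against 678, 411, 297, 483 and 222 in non-manipulated mice 1 to 5. The lowest manipulated sample was above the highest non-manipulated one, and mouse 1 was the highest of its arm by a wide gap. The difference was 3.02 ± 0.45 log2 units (SE, n = 4 and 5, edgeR adjusted p = 2.6e-05). Ccl2, the main ligand of CCR2, stood at 15537, 11721, 16652 and 13521 in manipulated mice, against 2608, 3396, 3811, 3253 and 5302 in non-manipulated mice. Both arms were tight and separate, and the difference was 1.97 ± 0.37 (edgeR adjusted p = 0.000425). Ccl7, a second CCR2 ligand, stood at 19802, 8331, 19852 and 19150 in manipulated mice, against 443, 1503, 1691, 1248 and 5366 in non-manipulated mice. Manipulated mouse 2 was well below its arm and non-manipulated mouse 5 well above its own, yet the arms did not overlap (3.03 ± 0.79, edgeR adjusted p = 0.0128). Ccl8, another monocyte attractant, was low in all samples (92.6 to 151 against 71.7 to 138) with a difference of 0.19 ± 0.31 (edgeR adjusted p = 0.737). The calls of Cxcl1, Ccl2 and Ccl7 held when any 1 of the 9 mice was left out. Within the lanes of mice 3 and 4, whose deposited values shared a multiplier, the differences were 2.66, 2.09 and 3.73, and among the other mice 3.31, 1.85 (edgeR adjusted p = 0.0575) and 2.53 (edgeR adjusted p = 0.132).

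**Figure D2:**
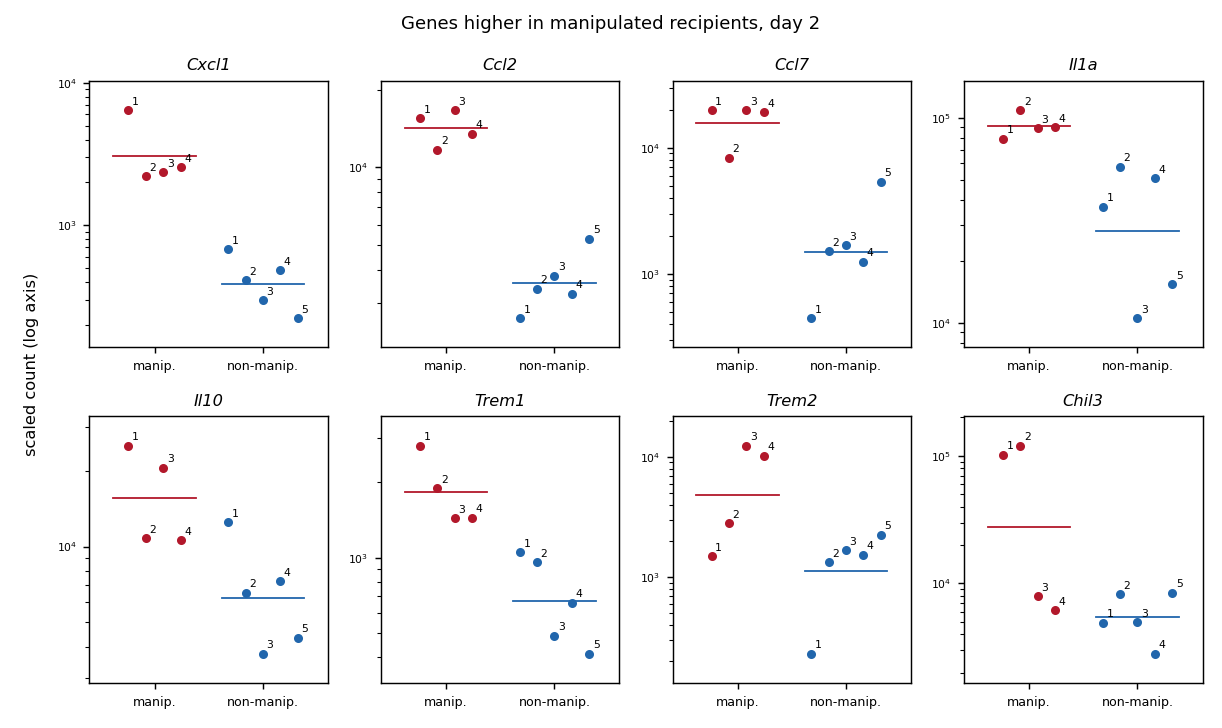
Scaled counts (log axis) of the 8 genes that were higher in manipulated recipients at day 2; each point is 1 mouse with its number, and the bar is the geometric mean of the arm. Cxcl1, Ccl2, Ccl7, Il1a and Trem1 are separate between arms, while Chil3 is at 102124 and 120165 in manipulated mice 1 and 2 and at most 8476 in every other sample.

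Among 5 measured pro-inflammatory cytokines, Il1a alone passed, against 18 of all 57 genes (31.6%), and the median of the list was 0.53. Il1a, the gene of an interleukin 1 that acts as an alarm signal, stood at 79419, 109202, 89231 and 89998 scaled counts in manipulated mice, against 36871, 57989, 10539, 51006 and 15457 in non-manipulated mice. The manipulated samples were even, whereas non-manipulated mice 3 and 5 lay far below the other three. The difference was 1.42 ± 0.39 (edgeR adjusted p = 0.0128) and held without each mouse in turn. It was 1.54 within mice 3 and 4 (edgeR adjusted p = 0.128) and 1.36 among the others (edgeR adjusted p = 0.0967). Il6, a cytokine of acute inflammation, stood at 300, 341, 163 and 238 in manipulated mice, against 54.9, 150, 20.96, 153 and 126 in non-manipulated mice. A narrow gap parted the arms, non-manipulated mouse 3 was not above background, and the test was missed (1.37 ± 0.60, edgeR adjusted p = 0.0726). Il6 passed without Rpl19 in the scaling (1.65, edgeR adjusted p = 0.0438) and by the normalized values of the authors (2.14, limma adjusted p = 0.0132). Il1b ran from 55575 to 70397 in manipulated and from 15929 to 56703 in non-manipulated mice (0.53 ± 0.40, edgeR adjusted p = 0.349). Tnf ran from 45415 to 88625 and from 21088 to 84788 (0.23 ± 0.53, edgeR adjusted p = 0.787). Il23a, a subunit of interleukin 23, ran from 579 to 2952 in manipulated mice, against 878, 686, 50.2, 5933 and 61.1 in non-manipulated mice. Its non-manipulated values spread over a range that held the whole manipulated arm, and its difference of -0.05 ± 1.00 (edgeR adjusted p = 0.976) became 1.81 without non-manipulated mouse 4 (edgeR adjusted p = 0.142).

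All 3 ligands of CXCR3, which interferons induce, had negative fold changes, and 2 passed. Of all 57 genes, 29 had negative fold changes and 10 passed as lower (17.5%). Cxcl9, an interferon-gamma-induced attractant of T cells, stood at 268, 57.2, 188 and 814 scaled counts in manipulated mice, against 1753, 1888, 5345, 1998 and 18497 in non-manipulated mice. There was no overlap, and non-manipulated mouse 5 was the highest sample by a wide gap. The difference was -4.15 ± 1.15 (edgeR adjusted p = 0.0128) and the call held without each mouse in turn, at -3.05 without the mouse that moved it most. It was -2.87 within mice 3 and 4 (edgeR adjusted p = 0.26) and -5.50 among the others (edgeR adjusted p = 0.0529). Cxcl11, a ligand of the same receptor, stood at 221, 95.8, 92.6 and 48.0 in manipulated mice, against 582, 1040, 3761, 70.1 and 531 in non-manipulated mice. Non-manipulated mouse 4 fell among the manipulated samples and mouse 3 was the highest (-3.38 ± 1.05, edgeR adjusted p = 0.0222). The call of Cxcl11 was lost without manipulated mouse 2, 3 or 4 or non-manipulated mouse 3 (edgeR adjusted p from 0.0546 to 0.0735). Cxcl10, the third ligand, overlapped at 9160 to 20574 against 16262 to 48636 (-0.92 ± 0.64, edgeR adjusted p = 0.287).

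Of 8 measured genes of chemokine receptors, integrins and homing, 4 were lower in manipulated recipients and none was higher, with a median of -1.63. Of all 57 genes, 10 were lower (17.5%) and 8 higher (14%). Ccr2, the receptor for CCL2, stood at 10331, 16812, 39377 and 31683 scaled counts in manipulated mice, against 65444, 56846, 68140, 56506 and 118573 in non-manipulated mice. The arms were separate, with manipulated mice 1 and 2 below mice 3 and 4 (-1.57 ± 0.51, edgeR adjusted p = 0.0279). The Ccr2 difference was -0.81 (edgeR adjusted p = 0.128) within mice 3 and 4 and -2.56 (edgeR adjusted p = 0.0277) among the others, and the call was lost without manipulated mouse 1 or 2 or without non-manipulated mouse 5 (edgeR adjusted p from 0.0631 to 0.0835). Cx3cr1, the fractalkine receptor, stood at 210, 62.0, 552 and 389 in manipulated mice, against 860, 522, 1096, 911 and 3374 in non-manipulated mice. Manipulated mouse 3 overlapped with non-manipulated mouse 2 (-2.16 ± 0.81, edgeR adjusted p = 0.0419). Its call was lost without manipulated mouse 1, 2 or 4 or non-manipulated mouse 3 or 5 (edgeR adjusted p from 0.0538 to 0.159), and the difference was -1.09 within mice 3 and 4 and -3.54 among the others. Itgax, the gene of CD11c, stood at 491, 1326, 1994 and 2305 in manipulated mice, against 13043, 5753, 7738, 6784 and 8109 in non-manipulated mice. No samples of the arms overlapped (-2.44 ± 0.76, edgeR adjusted p = 0.0222), although the sort gate bounded CD11c protein in both. The call of Itgax was lost without manipulated mouse 1 or 2 (edgeR adjusted p = 0.065 and 0.0583).

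Ccr9, a receptor that guides cells to the small intestine, stood at 414, 86.9, 99.6 and 96.0 scaled counts in manipulated mice, against 343, 226, 130, 134 and 3106 in non-manipulated mice. Its difference of -2.18 ± 0.77 (edgeR adjusted p = 0.0337) rested on non-manipulated mouse 5 and was -0.26 without it (edgeR adjusted p = 0.776). The call was also lost without manipulated mouse 2, 3 or 4. Itgb7, the gene of the gut-homing integrin beta 7, stood at 718, 3049, 1917 and 2429 in manipulated mice, against 3125, 5050, 8188, 6999 and 9416 in non-manipulated mice. A narrow gap parted the arms, and the test was missed (-1.69 ± 0.71, edgeR adjusted p = 0.0636). Ccr7, which guides cells to lymph nodes, had a difference of -1.44 ± 0.74 (edgeR adjusted p = 0.143).

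**Figure D3:**
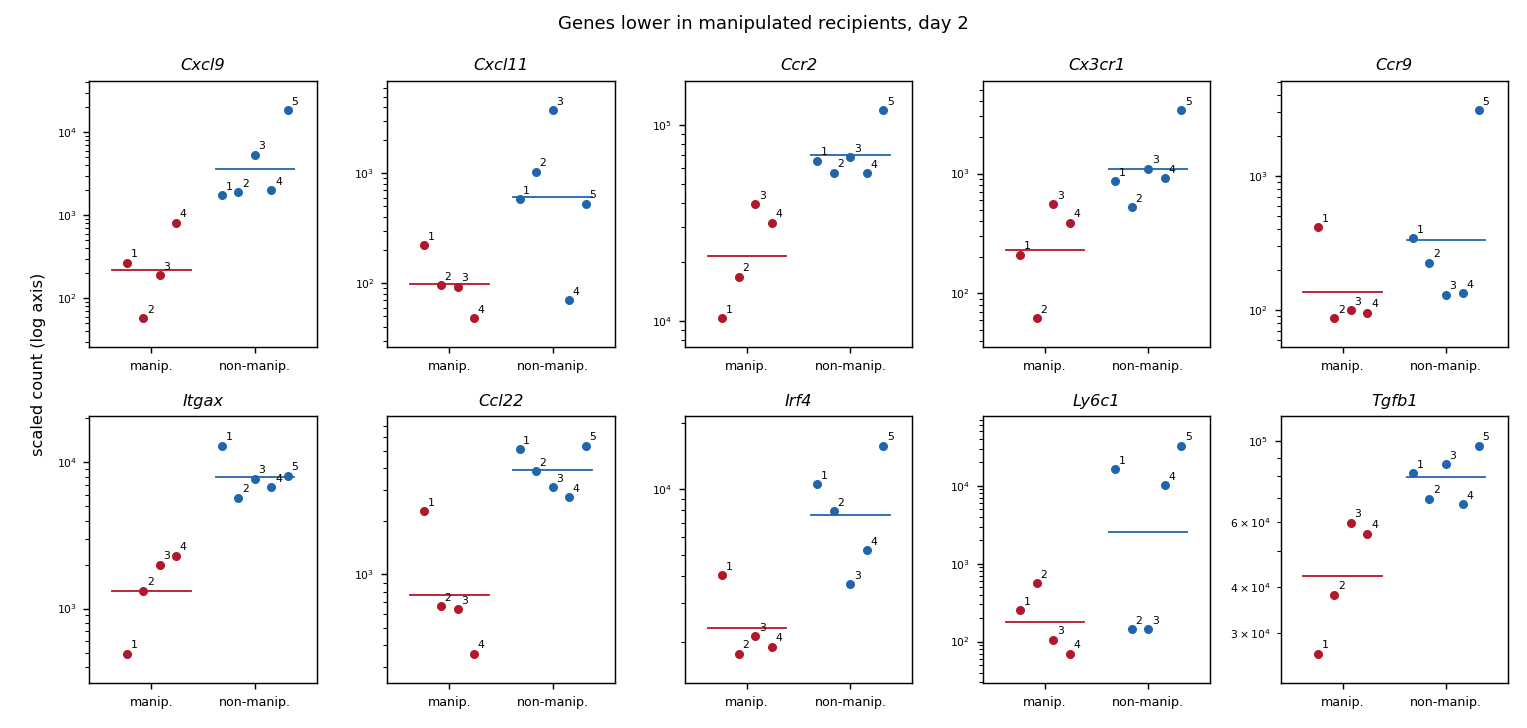
Scaled counts (log axis) of the 10 genes that were lower in manipulated recipients at day 2; each point is 1 mouse with its number, and the bar is the geometric mean of the arm. Non-manipulated mouse 5 is the highest sample for Cxcl9, Ccr2, Cx3cr1, Ccr9, Ccl22, Irf4, Ly6c1 and Tgfb1, and Ly6c1 of non-manipulated mice 2 and 3 lies at the level of the manipulated arm.

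Ly6c1, a gene of the Ly6C surface proteins, stood at 254, 559, 106 and 69.8 scaled counts in manipulated mice, against 16509, 145, 144, 10208 and 32957 in non-manipulated mice. Non-manipulated mice 2 and 3 lay at the manipulated level, and the other three more than 10-fold above every manipulated sample. The fitted difference of -5.60 ± 1.92 (edgeR adjusted p = 0.0279) therefore averaged over an arm that was itself divided. Its call was lost without non-manipulated mouse 5 or any manipulated mouse (edgeR adjusted p from 0.0583 to 0.0783). The probe is listed for Ly6c1, and whether it also counts the close copy Ly6c2, which was not on the panel, was not tested.

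Ccl22, a chemokine of dendritic cells and alternatively activated macrophages, stood at 2291, 662, 637 and 355 scaled counts in manipulated mice, against 5135, 3868, 3123, 2752 and 5391 in non-manipulated mice. Again the arms did not overlap, with manipulated mouse 1 nearest to the non-manipulated samples (-2.04 ± 0.69, edgeR adjusted p = 0.0279). The call of Ccl22 was lost without manipulated mouse 2, 3 or 4 or non-manipulated mouse 5 (edgeR adjusted p from 0.0631 to 0.0832). Irf4, a transcription factor of myeloid and dendritic cell differentiation, stood at 4044, 1768, 2128 and 1903 in manipulated mice, against 10526, 7895, 3675, 5244 and 15769 in non-manipulated mice. Manipulated mouse 1 overlapped with non-manipulated mouse 3, and the other manipulated samples were lower than every non-manipulated one. The difference of -1.81 ± 0.50 (edgeR adjusted p = 0.0128) held without each mouse in turn. It was -1.15 within mice 3 and 4 (edgeR adjusted p = 0.128) and -1.97 among the others (edgeR adjusted p = 0.111). By the normalized values of the authors it was -1.19 (limma adjusted p = 0.141). None of the other 4 transcription factors outside the NF-kB family passed, and the median of these 5 was -0.38. Among them Spi1 was separate between arms, at 22597, 46109, 47969 and 47953 in manipulated mice, against 59437, 55648, 60641, 54399 and 62968 in non-manipulated mice. Apart from manipulated mouse 1 the gap was small, and Spi1 did not pass (-0.51 ± 0.31, edgeR adjusted p = 0.215).

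The 3 measured genes of the regulatory cytokine pathway went separate ways, with a median of -0.84. Il10, the gene of the main anti-inflammatory cytokine of the gut, stood at 25200, 10771, 20569 and 10576 scaled counts in manipulated mice, against 12475, 6554, 3747, 7262 and 4334 in non-manipulated mice. Non-manipulated mouse 1 lay above manipulated mice 2 and 4 (1.29 ± 0.43, edgeR adjusted p = 0.0279). The call of Il10 was lost without manipulated mouse 1 or 3 or non-manipulated mouse 3 or 5 (edgeR adjusted p from 0.0621 to 0.101). Tgfb1, the gene of transforming growth factor beta 1, stood at 26297, 38090, 59836 and 55839 in manipulated mice, against 81759, 69520, 86411, 67145 and 97078 in non-manipulated mice. The arms were separate (-0.84 ± 0.28, edgeR adjusted p = 0.0279), and the difference was -0.41 within mice 3 and 4 and -1.36 among the others. The call of Tgfb1 was lost without manipulated mouse 1 or 2 or without non-manipulated mouse 5 (edgeR adjusted p from 0.0631 to 0.101), and its difference was -0.49 (edgeR adjusted p = 0.224) when Rpl19 was left out of the scaling. Il10ra, the receptor chain for IL-10, ran from 527 to 1191 in manipulated and from 1106 to 2208 in non-manipulated mice (-0.89 ± 0.53, edgeR adjusted p = 0.215).

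Chil3 and Arg1, genes of alternatively activated macrophages, had the largest positive fold changes of the panel, and both hid a divided arm. Chil3, a chitinase-like gene, stood at 102124, 120165, 7905 and 6162 scaled counts in manipulated mice, against 4925, 8273, 4947, 2816 and 8476 in non-manipulated mice. Manipulated mice 1 and 2 were more than 10-fold above every other sample, while mice 3 and 4 lay within the non-manipulated range. The difference of 3.33 ± 0.99 (edgeR adjusted p = 0.0206) was 0.86 within mice 3 and 4 (edgeR adjusted p = 0.453) and 3.94 among the others (edgeR adjusted p = 0.0141), and the call was lost without manipulated mouse 2 (edgeR adjusted p = 0.0602). Arg1, the arginase gene, stood at 89090, 172621, 147960 and 130772 in manipulated mice, against 70.0, 30600, 33769, 596 and 223 in non-manipulated mice. The manipulated samples were even and above all others, whereas the non-manipulated arm split into mice 2 and 3 and a low set of the other three. Arg1 missed the threshold (3.37 ± 1.33, edgeR adjusted p = 0.0512), gave 6.38 by limma on log2 scaled counts, and passed without non-manipulated mouse 2 or 3 (edgeR adjusted p = 0.0418 and 0.0463). The resistin-like gene Retnla was below 100 scaled counts in all samples but non-manipulated mouse 2 (29.5 to 84.5 against 26.2 to 222) and gave -0.41 ± 1.39 (edgeR adjusted p = 0.843).

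Of 10 measured TREM receptors and pattern-recognition genes, 2 were higher in manipulated recipients, against 8 of all 57 genes (14%), and the median was 0.11. These 2 were the TREM receptors, and no pattern-recognition gene passed. Trem2, a lipid-sensing receptor of tissue macrophages, stood at 1483, 2793, 12435 and 10270 scaled counts in manipulated mice, against 230, 1324, 1676, 1538 and 2251 in non-manipulated mice. Here manipulated mice 3 and 4 were the high ones and mouse 1 lay within the non-manipulated range, the reverse of the order in Chil3. The difference of 2.26 ± 0.75 (edgeR adjusted p = 0.0279) was 2.82 within mice 3 and 4 (edgeR adjusted p = 0.00704) and 0.75 among the others (edgeR adjusted p = 0.621), and the call was lost without manipulated mouse 3 or 4 (edgeR adjusted p from 0.0742 to 0.0879). Trem1, which amplifies inflammatory signals in myeloid cells, stood at 2806, 1894, 1435 and 1446 in manipulated mice, against 1052, 957, 487, 660 and 413 in non-manipulated mice. The arms were separate, and manipulated mouse 1 was the highest (1.41 ± 0.52, edgeR adjusted p = 0.041). When 1 mouse was left out, the call of Trem1 was lost more often than any other. It was lost without non-manipulated mouse 3, 4 or 5 or any manipulated mouse (edgeR adjusted p from 0.0558 to 0.133). Its difference stayed between 1.16 and 1.59. Cd14, the co-receptor for bacterial lipopolysaccharide, stood at 66231, 81617, 94413 and 101351 in manipulated mice, against 57096, 57389, 56728, 54355 and 42252 in non-manipulated mice. The ranges were apart and the difference small, 0.68 ± 0.27, just outside the threshold (edgeR adjusted p = 0.0507), and it passed without manipulated mouse 1 (edgeR adjusted p = 0.0437). The remaining 7 genes of the list included Tlr2, a receptor for bacterial lipopeptides, which was read at 44.6 to 106 against 32.2 to 78.2 (0.59 ± 0.39, edgeR adjusted p = 0.263).

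**Figure D4:**
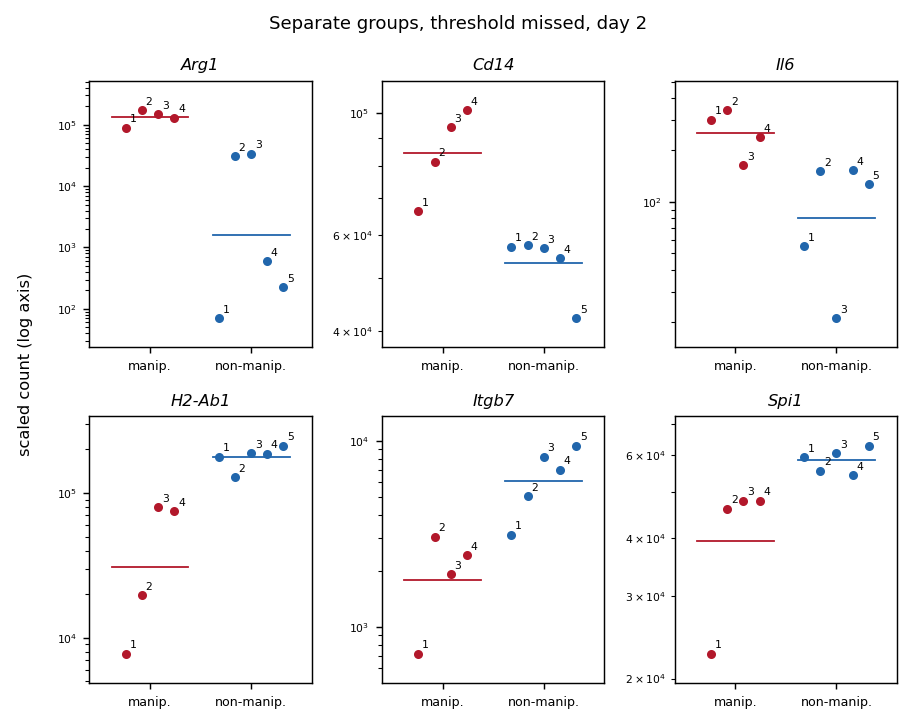
Scaled counts (log axis) of the 6 genes whose arms did not overlap at day 2 but whose test was missed; each point is 1 mouse with its number, and the bar is the geometric mean of the arm. Arg1 is even in the manipulated arm and spreads over a range from 70.0 to 33769 in the non-manipulated arm.

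None of 6 macrophage surface and lysosome genes passed by edgeR (median -0.14), and 1 of them had an unadjusted p below 0.05 and passed by DESeq2, while limma called 0. This was Mrc1, the gene of the mannose receptor, at 341 to 1852 scaled counts against 134 to 777 (1.78 ± 0.76, edgeR adjusted p = 0.0664). Csf1r, the gene of the CSF1 receptor, ran from 8010 to 23211 and from 18841 to 43736 (-0.75 ± 0.47, edgeR adjusted p = 0.237). None of 3 antigen presentation and co-stimulation genes passed either (median -0.29), and 1 of them, H2-Ab1, had an unadjusted p below 0.05. It passed by DESeq2 and by limma on log2 scaled counts. H2-Ab1, an MHC class II gene, stood at 7763, 19747, 79520 and 74877 in manipulated mice, against 178783, 128218, 189078, 186937 and 212775 in non-manipulated mice. Every manipulated sample was lower, manipulated mice 1 and 2 were well below mice 3 and 4, and the difference was -1.98 ± 0.79 (edgeR adjusted p = 0.0529). Among the 3 NF-kB subunits, which drive inflammatory transcription, 0 passed by edgeR, DESeq2 or limma, 0 had an unadjusted p below 0.05, and the median was -0.10. Vegfa, the gene of a vascular growth factor, did not pass at 1837 to 4357 against 70.4 to 4108.

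The samples of an arm differed among themselves in a graded way. Manipulated mouse 1 differed by more than 2-fold from the other manipulated mice in 29 to 34 of the 57 genes, while the other pairs of that arm did so in 3 to 14. Mice 3 and 4 were the closest pair, with 3 such genes. Non-manipulated mouse 5 differed by more than 2-fold from the others of its arm in 19 to 33 genes, and the remaining pairs in 10 to 29. No pair of lanes came within counting noise of each other. Without manipulated mouse 1 and non-manipulated mouse 5 together, 8 genes passed: Ccl2, Ccl7, Cxcl1, Il1a and Trem2 were higher and Ccl22, Cxcl11 and Irf4 lower (edgeR, leaving out chosen after the values were seen). Within mice 3 and 4 alone 6 genes passed and among the other mice 3, with 2 manipulated mice in each set. Those of mice 3 and 4 were Ccl2, Ccl7, Cxcl1, Trem2 and Mrc1, higher, and Ccl22, lower, and those of the other mice Cxcl1 and Chil3, higher, and Ccr2, lower, so that Cxcl1 alone passed in both sets. Scaling moved the balance of directions: 12 genes were higher and 7 lower without Rpl19 (median 0.25), and 10 higher and 2 lower by the values normalized by the authors (median 0.44), by which Ccr2, Cx3cr1, Tgfb1, Itgax, Irf4, Cxcl11, Ccr9, Ly6c1 and Chil3 were not called. Without Rpl19 the calls of Ccr2, Cx3cr1 and Tgfb1 were lost, and scaling by the total count ended those of Ccr9 and Trem1. By limma on log2 scaled counts Ccr9, Chil3, Ly6c1 and Trem2 were not called with pseudocount 1 or 20 and Cxcl11 not with 1, while Arg1 and H2-Ab1 were.

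Day 2 was then set against the days on either side by testing the difference between manipulation effects. The effect at day 2 was smaller than at day 1 for 4 genes (7.02% of 57) and larger for 0 (edgeR), and 11 genes had an unadjusted p below 0.05. Il1a was higher in manipulated recipients by 4.07 ± 0.42 log2 units at day 1 and by 1.42 ± 0.39 at day 2, a difference of -2.65 ± 0.55 (edgeR adjusted p = 0.00379). Il6 gave 5.12 ± 0.67 at day 1 and 1.37 ± 0.60 at day 2, a difference of -3.76 ± 0.86 (edgeR adjusted p = 0.0053). With background subtracted the Il6 difference did not pass (-4.18, edgeR adjusted p = 0.12). The Ccl7 effect was 7.02 ± 0.93 at day 1 and 3.03 ± 0.79 at day 2, a difference of -3.99 ± 1.09 (edgeR adjusted p = 0.023) that was lost without non-manipulated mouse 5 or manipulated mouse 2 of day 2 (edgeR adjusted p = 0.0627 and 0.0717). Scaling by the total count (edgeR adjusted p = 0.0614) or leaving out both of those lanes that stood apart (0.0632) also ended it. So did limma on the normalized values of the authors (limma adjusted p = 0.0736) or with pseudocount 20 (0.0627). Il23a gave 4.78 ± 1.11 at day 1 and -0.05 ± 1.00 at day 2, and its difference of -4.83 ± 1.47 (edgeR adjusted p = 0.0438) was -2.97 without non-manipulated mouse 4 of day 2 (edgeR adjusted p = 0.18) and was lost without manipulated mouse 1, 2 or 3 too (edgeR adjusted p from 0.0867 to 0.12). By other tools the Il23a difference was -2.30 on the normalized values of the authors (limma adjusted p = 0.746) and -2.26 and -2.11 by limma with pseudocounts 1 and 20 (adjusted p = 0.59 and 0.574). Il1a, Il6 and Il23a are among the 5 measured pro-inflammatory cytokine genes and Ccl7 among the 4 measured myeloid-recruiting chemokines, of 57 genes. Whether these lists were called more often than their share was not tested.

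For some genes the point estimates of days 2 and 5 lay together and apart from day 1, without a difference that passed. Chil3 gave 0.48 ± 0.89 at day 1, 3.33 ± 0.99 at day 2 and 4.36 ± 1.14 at day 5 (difference between days 2 and 1 2.85 ± 1.30, edgeR adjusted p = 0.216). Trem2 gave -0.30 ± 0.70, 2.26 ± 0.75 and 3.61 ± 0.86 at these days (difference 2.56 ± 1.02, edgeR adjusted p = 0.158). Ly6c1 gave 0.81 ± 1.43, -5.60 ± 1.92 and -5.86 ± 1.97 (edgeR adjusted p = 0.118 for the difference between days 2 and 1). Between days 5 and 2, no gene differed in its manipulation effect by edgeR. At an unadjusted p below 0.05 there were 7 such genes, DESeq2 with housekeeping size factors called 1 (Arg1), and limma and DESeq2 with its own factors called 0. Arg1 was higher in manipulated recipients by 6.12 ± 1.48 at day 1, 3.37 ± 1.33 at day 2 and 9.02 ± 1.88 at day 5 (difference 5.65 between days 5 and 2, edgeR adjusted p = 0.192). The high non-manipulated samples of Arg1 at day 2, mice 2 and 3, enter that estimate. Cxcl1 was higher in manipulated recipients by 3.90 ± 0.45, 3.02 ± 0.45 and 2.72 ± 0.48 at days 1, 2 and 5.

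**Figure D5:**
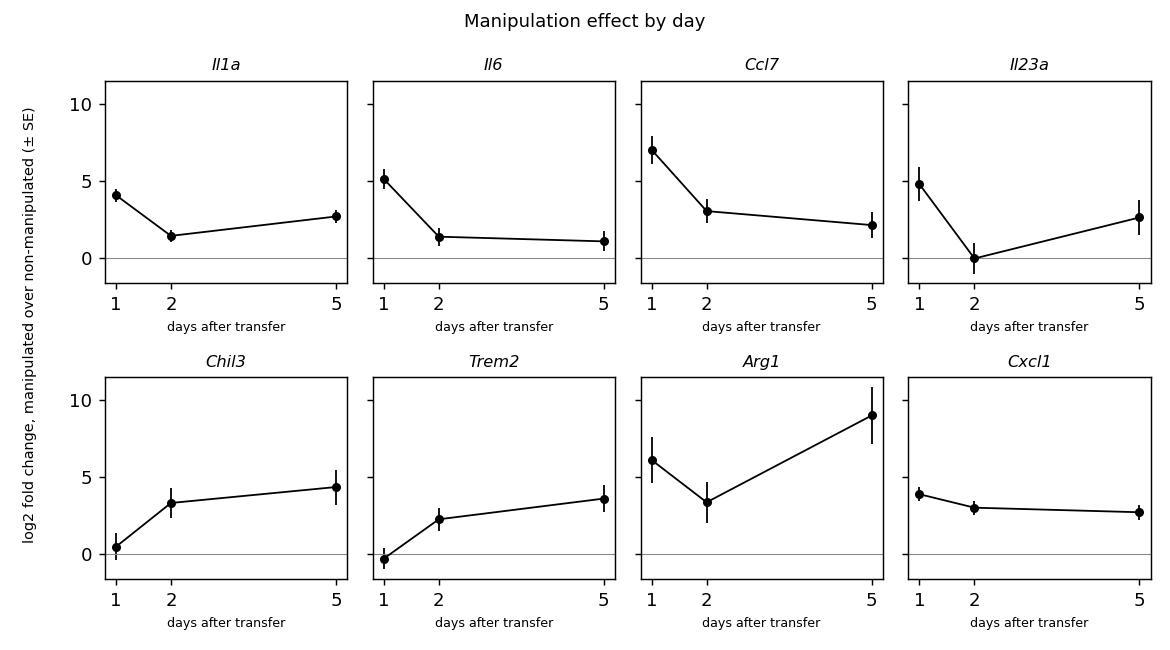
Log2 fold change of 8 genes, manipulated over non-manipulated, at days 1, 2 and 5 after transfer, with its standard error. Il1a, Il6, Ccl7 and Il23a stand lower at day 2 than at day 1 by a tested difference, while Chil3, Trem2, Arg1 and Cxcl1 did not pass that test between days 2 and 1 or between days 5 and 2.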

How the data were processed

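RNA of sorted donor cells was measured on the nCounter, which counts barcoded probes without sequencing. The deposited raw values of 15 lanes were whole-number barcode counts, and 1 of these lanes, manipulated mouse 5 of day 1, held even values throughout and was divided by 2. Those of the 12 lanes of mice 3 and 4 had the unit of estimated counts, since all deposited values were multiples of 1.333 (tolerance 0.001), and were divided by it and rounded. The reason for either multiplier is not given in the sources used here. A second table held a score, the normalized values of the authors, which the paper describes as normalized to housekeeping genes. Each was the raw value times 1 factor per lane (0.407 to 3.34), and the ratio varied by at most 0.0622% within a day 2 lane. Taken on the counts tested, this factor times the housekeeping mean was not constant in day 2 lanes. It ran from 39518 to 53320 in manipulated and from 25010 to 39978 in non-manipulated lanes. The scores thus differ from scaling by Actb, Gapdh and Rpl19 alone, and what else entered them was not tested. They served as an alternative. Of 67 panel genes, 10 were blank in every sample and 57 were tested. Probe identifiers gave the current symbol of 69 names and 3 were matched otherwise. Of 5 housekeeping genes, 3 had values.

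Library size was the geometric mean of Actb, Gapdh and Rpl19. The edgeR model held all 27 samples and the means of 6 groups (edgeR 4.0.16, glmQLFit and glmQLFTest, two-sided, 21 residual degrees of freedom, common BCV 0.685, the biological coefficient of variation, R 4.3.3). Benjamini-Hochberg adjustment was over the 57 genes. The contrasts were manipulated minus non-manipulated at day 2 and its difference from that at day 1 and at day 5. Alternatives were TMM, the total count, scaling without Rpl19, the normalized scores and log2 scaled counts with limma 3.58.1 (pseudocount 1 or 20), DESeq2 1.42.0, a filter, background subtraction, day 2 samples alone, blocks, subsets of lanes and each mouse left out. The scripts were tested on simulated counts.

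Every gene with an adjusted p below 0.05 at day 2, or with separate arms, is given with all its values, and other genes by counts and ranges with at most 3 per list. Single results of 2 of the 57 genes are not reported here. Gene lists and members were chosen with earlier results of these data known. Promoter windows were found for 50 of 72 panel and housekeeping genes. The samples were grouped by title and day label. The free-text description, which gives day 1 throughout, was set aside.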

Additional observations from a re-analysis of the deposited data

Results flagged for a closer look

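In 7 of 66 groups of 4 or 5 mice looked at, the highest or lowest sample stood apart from the rest of its arm by Dixon's criterion, where chance gives about 1 in 20. In the manipulated arm these were Ccl7 of mouse 2 (8331 scaled counts), and Cxcl1 (6429), Ccr9 (414) and Spi1 (22597) of mouse 1. In the non-manipulated arm they were Ccr2 (118573) and Cd14 (42252) of mouse 5 and Trem2 of mouse 1 (230). Of these 7, 5 fell on manipulated mouse 1 or non-manipulated mouse 5, the lanes that also differed from their arms in the most genes. The manipulation effect differed between days 2 and 1 by the test of that difference for Ccl7 (-3.99 log2 units), Il1a (-2.65), Il23a (-4.83) and Il6 (-3.76).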

How the results depend on the processing

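For day 2, 18 genes passed. The count was 6 within mice 3 and 4 (5 higher, 1 lower), 3 within the other mice (2 higher, 1 lower), 8 without both lanes that stood apart (5 higher, 3 lower), and 8 to 19 with each mouse left out. It was 8 without manipulated mouse 2 and 11 without manipulated mouse 3 or 4 or non-manipulated mouse 5. All other settings gave 12 to 23, with DESeq2 at 23 (11 higher, 12 lower). For the difference between days 2 and 1, the 4 genes became 2 by the total of the tested genes, the normalized scores, limma with pseudocount 20, background subtraction or without both lanes, and 2 to 4 with each mouse left out. For days 5 and 2, the 0 genes became 1 by DESeq2 with housekeeping size factors and stayed at 0 to 0 with each mouse left out. The cause of these changes was not tested, though the subsets hold fewer samples. Il23a at day 2 changed sign to 0.22 without Rpl19, 2.11 by the normalized scores, 1.59 and 1.43 by limma with pseudocounts 1 and 20, 0.45 with the replicate block, 0.18 with lanes of mice 3 and 4 as a block, 1.11 within the other mice, 1.81 without non-manipulated mouse 4, and 0.11 and 0.21 without manipulated mouse 1 or 3, in a range from -0.65 to 1.81 with each mouse left out. Ccr7 changed sign to 0.019 within mice 3 and 4. Of 1063 alternative values over 42 gene and comparison pairs, 885 kept their direction and side of the threshold, 132 lost the call, 35 gained it and 11 changed sign. With the replicate number as a block the counts were 15 (7 higher, 8 lower), 3 and 0. The block ended the calls of Ccr9 (-1.16, edgeR adjusted p = 0.304), Cx3cr1 (-2.23, 0.0636), Ly6c1 (-4.49, 0.0892) and Trem1 (1.29, 0.0768), and H2-Ab1 passed with it (-2.22, 0.0482). The labels do not say that a number marks a shared animal or batch. Deviations of same-numbered mice correlated at 0.352, -0.04, 0.386 and 0.244 for mice 1 to 4. Manipulated mice 1, 3 and 4 correlated best with their own number and mouse 2 with non-manipulated mouse 4 (0.147). The main model used no pairs because the labels give none, and whether a number marks a batch was not tested. Low counts limit Il6, Retnla, Ccl8, Tlr2, Ccr9 and Cxcl11, whose fold changes are uncertain in size. Counts of Cxcl9, Cx3cr1 and Ly6c1 also fell as low as 71, 77 and 80 in the manipulated arm, so the size of their fold changes is uncertain too.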
